A study of Bos taurus with 40 samples.

Results

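The 200 genes described here were those that varied most between bulls of the same group in the jejunal epithelium, the absorptive lining of the middle part of the small intestine. They were chosen among genes listed at both slaughter points, with a mean of at least 5 CPM (read counts relative to library size, scaled by the authors) over 40 libraries, and with group medians of log2(CPM + 1) that differed by less than 0.3 between RES and ADLIB animals in Period 1 and between RES animals in Period 2 and Period 1. Of the 13509 genes listed at both points, 11324 reached the level and 8782 also met both limits on the medians, after 5 identifiers were left out by name. Each group's mean was then subtracted and the 200 genes with the largest remaining SD were kept. The size of the spread between animals, the small differences of medians and the grouping of these genes into blocks therefore follow from how they were chosen, and are given as descriptions with no test.

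The animals were Holstein Friesian bulls, and each library came from a different animal. All were given the same diet of concentrate and grass silage, in a proportion that by the paper's account differed between treatment groups. In Period 1, which lasted 125 days, RES animals (labelled Restricted) received a restricted allowance and ADLIB animals (labelled Control) ate freely. In Period 2, which lasted 55 days, every animal ate freely. The 4 groups were ADLIB Period 1, RES Period 1, ADLIB Period 2 and RES Period 2 (the points TP1 and TP2 of the labels), with 10 libraries each. Part of the deposited description gives other numbers of animals and names muscle as the extracted tissue, and the labels of the single samples were followed.

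The intestinal epithelium is renewed continually from stem cells in the crypts, and its daughter cells become absorptive enterocytes, mucus-producing goblet cells, hormone-producing enteroendocrine cells and other types as they move towards the villus tip. A scraped sample also holds immune cells of the lining and can hold some of the tissue beneath it. In RNA from whole tissue, fewer cells of a type and less RNA per cell cannot be told apart. The files name genes by Ensembl identifier only, and no table used here pairs those identifiers with symbols. So the tissue label could not be checked against marker genes, no member is given a name or a function, and members are called by their rank in SD, where rank 1 is the largest. Only 4 identifiers are printed.

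Between 4431390 and 8295900 reads fell on the listed genes of a library, with a median of 6923444. A library of RES Period 2, replicate 1, stood apart, with 585 listed genes at 0 reads against a median of 7 over the 40 libraries and a scaling factor of 0.587 against a median of 1.03. A library of RES Period 1, replicate 6, had 87 genes at 0 and a scaling factor of 0.780. Replicate 1 of RES Period 2 held 18.2% of the members' within-group variance and was the library farthest from its group mean for 109 of the 200 members. Replicate 6 of RES Period 1 held 8.38% and was the farthest for 48. Several results that rest on these libraries are given with and without them.

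The members' SD ran from 2.34 at rank 1 to 0.867 at rank 200 on the log2 scale, with a median of 0.981. The next gene outside the list had an SD of 0.865, so that no step separated the members from the rest. The other 8582 genes that met the limits had a median SD of 0.368. Counting error was small beside this spread, as the SD that read numbers alone would give had a median of 0.109 and reached 0.231 at most among members. Levels of the members ranged from a mean of 5.09 to 2450 CPM with a median of 43.8 CPM, and 145 of the 200 were above 1 CPM in all 40 libraries. A typical member differed 9.14-fold between the lowest and the highest animal of ADLIB Period 1, 7.97-fold in RES Period 1, 4.43-fold in ADLIB Period 2 and 15.3-fold in RES Period 2, as medians over members of ratios of (CPM + 1).

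**Figure D1:**
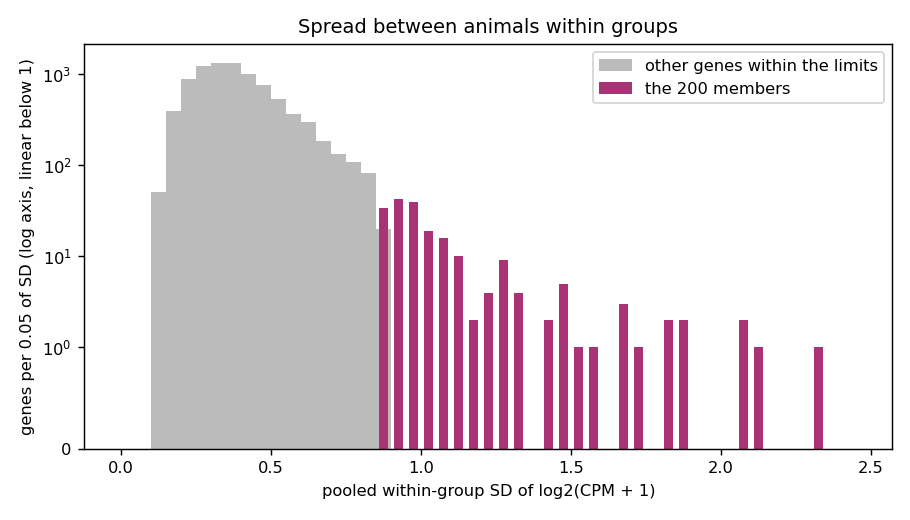
Number of genes (vertical axis, logarithmic above 1) by pooled within-group SD of log2(CPM + 1) (horizontal axis, bins of 0.05), for the 200 members (narrow bars) and the other 8582 genes within the limits (wide bars). The bars meet near an SD of 0.867 with no gap, and the members form the thin right tail that ends at 2.34.

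The members fell into 3 co-varying blocks. Pearson correlations of the deviations from the group means were computed over the 40 libraries, the members were joined by average linkage, and the tree was divided where joined members had a mean correlation of 0.5. Block 1 held 69 members, block 2 held 56 and block 3 held 52, together 177 of the 200. The other 23 members were in no block of 5 or more. The mean correlation between 2 members was 0.71 within block 1, 0.88 within block 2 and 0.71 within block 3. Between blocks it was -0.55 for blocks 1 and 3, 0.21 for blocks 1 and 2 and 0.07 for blocks 2 and 3. The first 3 principal components held 71.5% of the members' variance, beside 67.9% for all 8782 genes within the limits, members included. Without replicate 1 of RES Period 2 and replicate 6 of RES Period 1 these shares were 64.65% and 60.38%. The genes outside the list were not decomposed on their own.

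**Figure D2:**
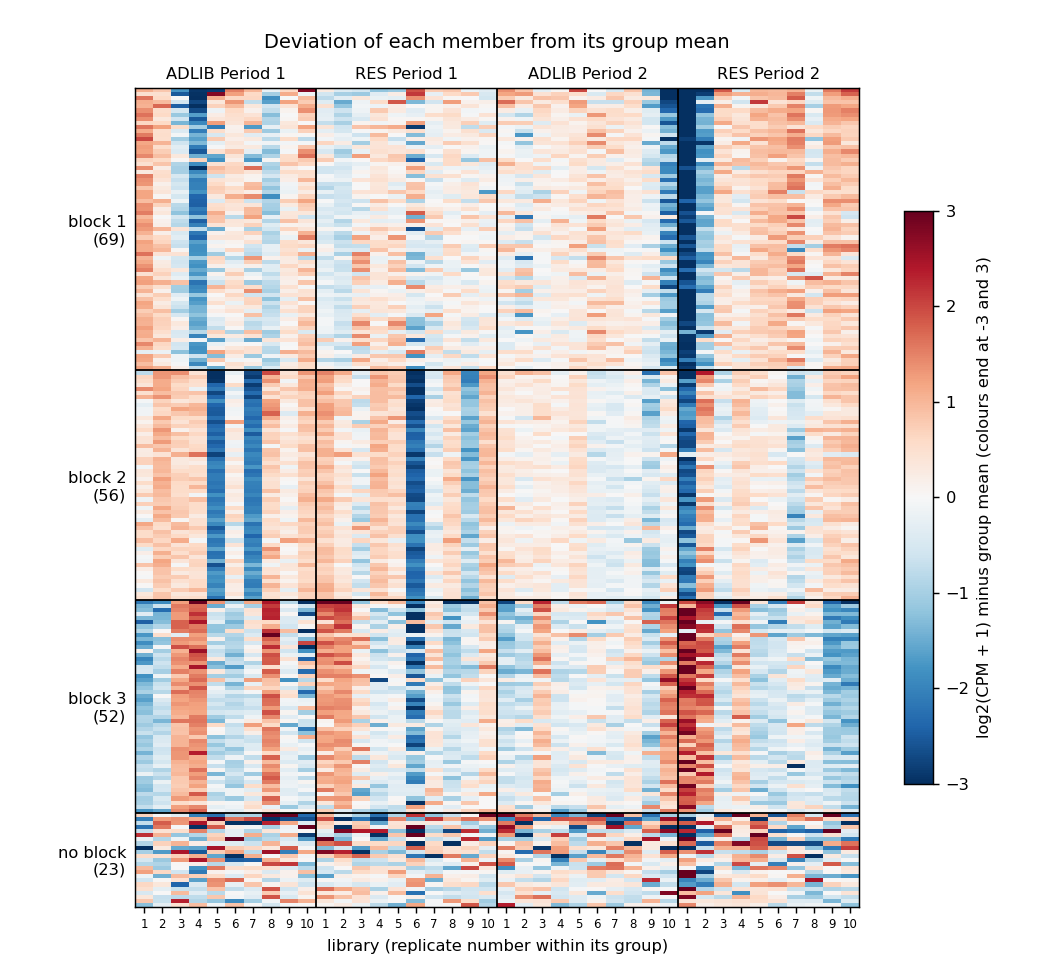
Deviation of log2(CPM + 1) from the group mean (colour, from -3 to 3) for each member (200 rows, by block) in each library (40 columns, by group and replicate number). Block 1 is dark blue in replicate 1 of RES Period 2, block 2 forms single blue columns in a few libraries of Period 1 and in that library, and block 3 is red in several of the columns where block 1 is blue.

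Block 1 was marked by 4 libraries in which its members were low together. The block level, the mean log2(CPM + 1) of the 69 members in a library, ran from 3.50 to 6.42 in ADLIB Period 1 (median 5.50), from 5.07 to 5.93 in RES Period 1 (median 5.64), from 4.12 to 6.12 in ADLIB Period 2 (median 5.81) and from 1.61 to 5.98 in RES Period 2 (median 5.67). The low values belonged to ADLIB Period 1 replicate 4, ADLIB Period 2 replicate 10 and RES Period 2 replicates 1 and 2, and no animal of RES Period 1 was more than 1 below its group mean. In replicate 1 of RES Period 2 all 69 members were below their group mean, and the block level deviated by -3.46. For 62 of the 69 members no other library lay as far below its group mean. Only ADLIB Period 1 replicate 1 was more than 1 above its group mean, by 1.11.

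The member most like the rest of block 1, ENSBTAG00000008612 (rank 56), had a correlation of 0.986 with their mean. Its level ran from 51.5 to 538 CPM in ADLIB Period 1 (median 255), from 208 to 380 CPM in RES Period 1 (median 273), from 98.2 to 477 CPM in ADLIB Period 2 (median 302) and from 5.61 to 440 CPM in RES Period 2 (median 288). The medians lay close together and the ranges of the 4 groups overlapped. In RES Period 2 the lowest value, 5.61 CPM, was in replicate 1, the library with 585 listed genes without a read. The next was 55.1 CPM in replicate 2, and the group's highest was 440 CPM. The ratio of highest to lowest, 78.5, rests on replicate 1. In RES Period 1 the same ratio was 1.83.

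The coherence of block 1 was uneven. Its mean correlation was 0.89 within the 10 libraries of RES Period 2, 0.69 within ADLIB Period 1 and 0.60 within ADLIB Period 2, but 0.22 within RES Period 1, where its levels hardly spread. It was 0.56 over the 20 libraries of Period 1 and 0.81 over those of Period 2. Without replicate 1 of RES Period 2 it fell from 0.71 to 0.58, and a tree built from the other 39 libraries kept 58 of the 69 members together and put 8 in a separate block. From Period 1 libraries alone, 42 stayed together and 19 formed a block of their own. Of the 69 members, 65 correlated best with their own block over all libraries, and 63 did so over the Period 1 libraries. The blocks were built from correlations over the same libraries. Such counts, here and for the other blocks, therefore describe the blocks and are no support for them.

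Block 2 had the highest mean correlation over all 40 libraries (0.88) and was marked by a few low animals. Its level was more than 1 below the group mean in 5 libraries, ADLIB Period 1 replicates 5 and 7, RES Period 1 replicates 6 and 9 and RES Period 2 replicate 1, and more than 1 above it in none. In each of these 5 libraries all 56 members were below their group mean. The level ran from 2.91 to 6.02 in ADLIB Period 1 (median 5.53), from 2.61 to 5.98 in RES Period 1 (median 5.53), from 4.67 to 5.76 in ADLIB Period 2 (median 5.41) and from 3.17 to 6.23 in RES Period 2 (median 5.57). The other 35 libraries lay between -0.757 and 0.926 of their group mean. ADLIB Period 2 held none of the 5 low animals, and a typical block 2 member differed 2.49-fold between its lowest and highest animal there, against 9.57-fold in ADLIB Period 1.

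ENSBTAG00000018729 (rank 47), the member most like the rest of block 2 (r = 0.986), gave the same picture. In ADLIB Period 1 its lowest 2 values were 6.57 and 9.43 CPM, against a median of 77.7 and a highest of 118 CPM. In RES Period 1 the lowest 2 were 8.80 and 17.8 CPM, with a median of 82.7 and a highest of 133 CPM. In ADLIB Period 2 it ran from 40.4 to 117 CPM (median 82.2). In RES Period 2 the lowest library was at 8.85 CPM, the next at 35.6 CPM, the median at 86.1 and the highest at 139 CPM. The 4 medians differed by less than the range of any group, and the spread lay in single low animals.

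The mean correlation of block 2 moved little when the 2 libraries with many genes at 0 were left out. It was 0.88 without replicate 1 of RES Period 2, 0.86 without replicate 6 of RES Period 1 and 0.84 without both. It was 0.93 over Period 1 libraries and 0.79 over Period 2 libraries, where block 1 was at 0.81, and within ADLIB Period 2 it was 0.59, beside 0.60 for block 1 and 0.61 for block 3. All 56 members stayed together in the tree from Period 1 libraries and 55 in that from Period 2. All 56 also correlated best with their own block over the 40 libraries, and 55 over those of Period 2.

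Block 3 contained the member with the largest SD and was the only block with more high than low animals. Its level was more than 1 above the group mean in 8 libraries and more than 1 below it in 4. It ran from 4.56 to 7.26 in ADLIB Period 1 (median 5.36), from 3.77 to 6.71 in RES Period 1 (median 5.42), from 4.58 to 6.46 in ADLIB Period 2 (median 5.07) and from 4.57 to 8.01 in RES Period 2 (median 5.41). The high animals were ADLIB Period 1 replicates 3, 4 and 8, RES Period 1 replicates 1 and 2, ADLIB Period 2 replicate 10 and RES Period 2 replicates 1 and 2. The low ones were ADLIB Period 1 replicate 1, RES Period 1 replicate 6 and RES Period 2 replicates 9 and 10. Both kinds occurred in Period 1 and in RES Period 2.

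**Figure D3:**
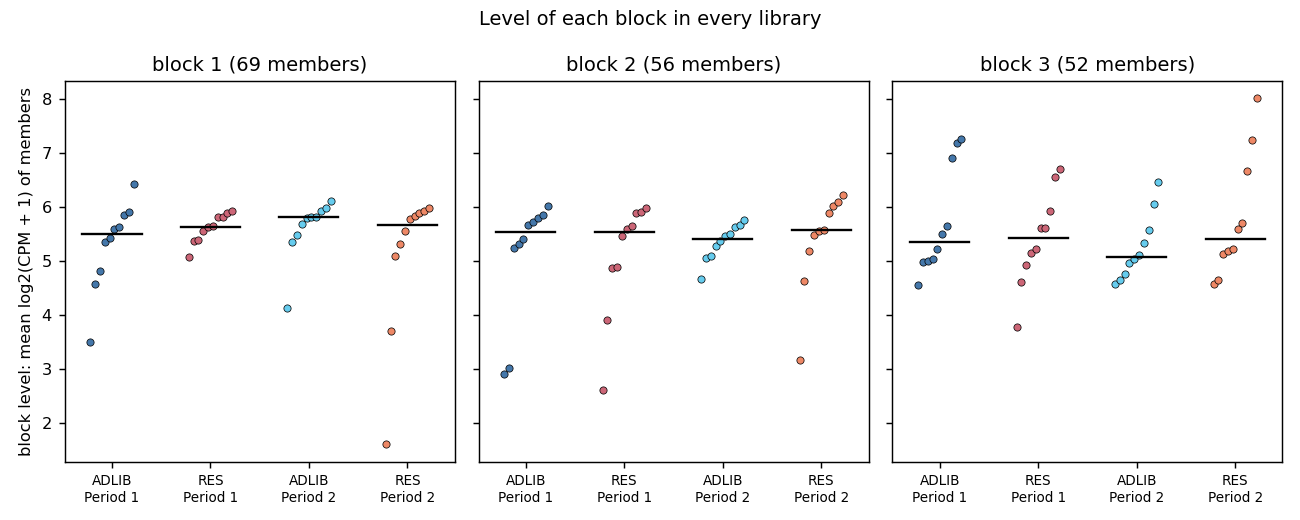
Block level (mean log2(CPM + 1) over the block's members, vertical axis) in every library, by group. Points are libraries ordered by value within their group and bars are group medians. Block 1 and block 2 have most libraries near 5.5 with single animals far below, down to 1.61 and 2.61, while block 3 has animals above the rest, up to 8.01.

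ENSBTAG00000005623 (rank 34) was the member most like the rest of block 3 (r = 0.973). It ran from 7.02 to 83.2 CPM in ADLIB Period 1 (median 15.6), from 1.65 to 51.6 CPM in RES Period 1 (median 15.2), from 4.79 to 31.9 CPM in ADLIB Period 2 (median 9.94) and from 5.82 to 132 CPM in RES Period 2 (median 15.2). The highest value, 132 CPM, was in replicate 1 of RES Period 2, the same library that was lowest for block 1. ENSBTAG00000004519, the member with the largest SD of all (2.34), was in block 3 but followed it less closely, with a correlation of 0.741 with the mean of the other members. It ran from 0.610 to 250 CPM in ADLIB Period 1 (median 29.5), from 0.517 to 204 CPM in RES Period 1 (median 21.2), from 0.547 to 50.3 CPM in ADLIB Period 2 (median 11.4) and from 0.334 to 343 CPM in RES Period 2 (median 24.4). Each group thus held animals under 1 CPM and animals above 50 CPM of it. The lowest values rest on a few reads each, since 1 read was worth between 0.116 and 0.295 CPM.

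The mean correlation of block 3 was 0.68 without replicate 1 of RES Period 2, 0.72 without replicate 6 of RES Period 1 and 0.69 without both. It was 0.70 over Period 1 and 0.73 over Period 2 libraries, and all 52 members correlated best with their own block in either period. A tree from Period 1 libraries kept 42 of the 52 together and put 9 in a separate block, that from Period 2 libraries kept 47, and that without replicate 1 of RES Period 2 kept 47.

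Blocks 1 and 3 ran against each other. Over the 40 libraries their levels, as deviations from the group means, had a Pearson correlation of -0.759 and a Spearman correlation of -0.639. All 4 libraries that were low in block 1 by more than 1 were also high in block 3 by more than 1, and the library highest in block 1, ADLIB Period 1 replicate 1, was low in block 3. Without those 4 libraries r was -0.60 (n = 36), and without the 2 libraries with many genes at 0 it was -0.792 (n = 38). Block 2 was weakly correlated with both, with r of 0.251 with block 1 and 0.0925 with block 3, and of -0.0882 and 0.179 without those 2 libraries. Block 2 was high, not low, in replicate 2 of RES Period 2 and in ADLIB Period 1 replicate 4, where block 1 was low.

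**Figure D4:**
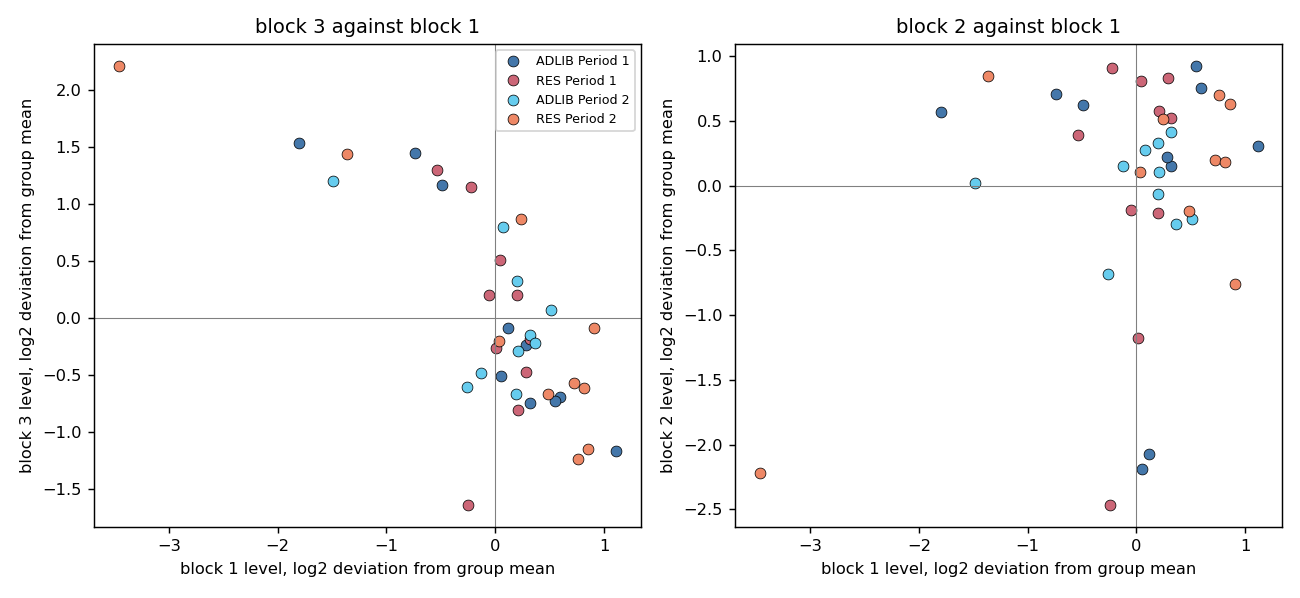
Deviation of block 3 (left) and block 2 (right) from the group mean against that of block 1, both in log2 units of the block level, for 40 libraries coloured by group. On the left the 4 libraries below -1 in block 1 are all above 1 in block 3 (r = -0.759), and on the right the libraries low in block 2 lie near 0 in block 1, except RES Period 2 replicate 1 at -3.46.

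The scaling of the libraries moved with the blocks. Levels correlated with the scaling factor that the authors' normalisation gave each library, both as deviations from the group means, with r of 0.721 for block 1, 0.509 for block 2 and -0.53 for block 3 (n = 40). Without the 2 libraries with many genes at 0 these values were 0.579, 0.236 and -0.589 (n = 38). The number of reads had r of -0.0599, 0.18 and 0.236. The part of the scaling in the block levels was not tested. With 1 TMM scaling over all 40 libraries, 184 of the 200 members were chosen again. Grouped by the first digit of the library code, whose meaning is not given in the sources used here, the median deviation of a block level lay between -0.49 and 0.39.

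Over all 40 libraries, the blocks extended beyond the list. Replicate 1 of RES Period 2 held 15.6% of the within-group variance of the genes within the limits. The counts below include it and were not computed without it. Among the 8582 other genes within the limits, 372 had a correlation above 0.7 with the level of block 1 and 553 below -0.7. For block 2 the counts were 1164 and 1127, and for block 3 they were 493 and 283. So 13.6% of the less variable genes followed block 2 at that strength and 13.1% ran against it, although their own SD was at most 0.865.

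The 23 members in no block included 11 of the 20 with the largest SD. Of these 23, 13 stood alone in the tree and 10 formed 5 pairs. Several of them took separate levels instead of a continuous range. When the 40 values of a member were sorted, leaving at least 3 on each side, 25 of the 200 members had a gap above 1 on the log2 scale (12.5%), against 3 of the 8582 other genes (0.035%). Those of the 25 in no block were the members ranked 2, 3, 4, 6, 7, 8 and 10, and the others were in block 1 or 2. As a wide gap needs a large SD, these shares describe the list and are no comparison with the rest.

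The clearest case was the member ranked 10. It was at most 0.158 CPM in 7 libraries and at least 7.35 CPM in the other 33, with no value between. The 7 were replicates 6 and 8 of RES Period 1, replicate 8 of ADLIB Period 2 and replicates 2, 6, 7 and 8 of RES Period 2, and 6 of them had 0 reads. At these depths 0 reads allow a level of up to 0.348 to 0.825 CPM, taking 3 reads as the limit for counting error alone. The other 33 libraries had a median of 16.4 CPM and reached 43.6 CPM. By group, 0 of 10 ADLIB Period 1, 2 of 10 RES Period 1, 1 of 10 ADLIB Period 2 and 4 of 10 RES Period 2 animals were at the low level.

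The member ranked 6 was at its lowest in the same animals. It was under 1 CPM in 6 libraries, all of them among the 7 low libraries of rank 10, and in the seventh, ADLIB Period 2 replicate 8, it was at 6.35 CPM. The correlation of both members was 0.61. Rank 6 had in addition 10 libraries at 24.8 CPM or more, with a median of 43.8 CPM, while its other 30 libraries were at or under 11.1 CPM. Among the 10 high libraries, rank 10 ranged from 11.6 to 39.7 CPM, so rank 10 did not share the high level of rank 6.

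The member ranked 4 was at or under 1.76 CPM in 5 libraries and at or above 14.7 CPM in 35. The 5 were ADLIB Period 1 replicates 6 and 7, ADLIB Period 2 replicates 2 and 7 and RES Period 2 replicate 10, none of them low for rank 10. The member ranked 3 divided more evenly, with 15 libraries at or under 13.5 CPM (median 4.40) and 25 at or above 56.3 CPM (median 98.0). Its 15 low animals were spread over the groups, with 4 in ADLIB Period 1, 4 in RES Period 1, 5 in ADLIB Period 2 and 2 in RES Period 2.

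**Figure D5:**
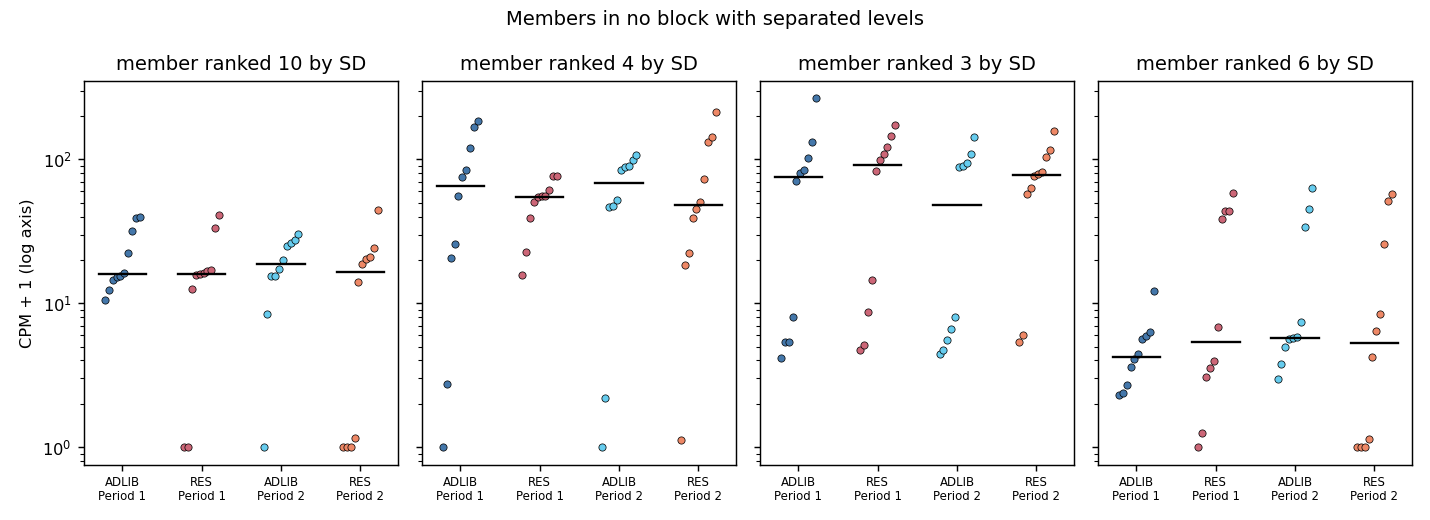
Level of the members ranked 10, 4, 3 and 6 by SD (CPM + 1, logarithmic vertical axis) in every library, by group. Points are libraries ordered by value within their group and bars are group medians. Rank 10 has 7 libraries near the bottom and no value between 0.158 and 7.35 CPM, rank 4 has 5 low libraries, rank 3 has 15, and rank 6 has 10 high libraries.

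The member ranked 8 was low in most animals and high in single ones. It was at 326 CPM in ADLIB Period 1 replicate 6, where the next animal was at 9.43 CPM and the median was 2.81 CPM. It was at 92.4 CPM in RES Period 1 replicate 1 and at 100 CPM in RES Period 2 replicate 1, against medians of 2.62 and 2.15 CPM, and at no more than 14.4 CPM in ADLIB Period 2. The member ranked 7 ranged from 10.3 CPM in RES Period 1 replicate 4 to 9943 CPM in replicate 6 of the same group. Replicate 6 was the library with 87 listed genes without a read. The second highest animal of that group was at 662 CPM, and the 4 group medians lay between 353 and 411 CPM.

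Some members outside the blocks moved in pairs. The members ranked 2 and 49 had a correlation of 0.86. Rank 2 had group medians between 3.14 and 7.28 CPM and highest animals between 53.7 and 119 CPM, and rank 49 had medians between 87.7 and 96.1 CPM and highest animals between 326 and 491 CPM. Both were highest in ADLIB Period 1 replicate 9 and, within RES Period 1, in replicate 10. In Period 2 their highest animals differed. Rank 2 was highest in ADLIB replicate 7 and RES replicate 9, and rank 49 in ADLIB replicate 1 and RES replicate 4. The members ranked 134 and 156 had a correlation of 0.93. Both were highest in replicate 1 of RES Period 2, at 869 and 94.1 CPM against group medians of 57.7 and 8.43 CPM, and in ADLIB Period 1 in replicate 8, at 306 and 40.2 CPM. Replicate 1 of RES Period 2 held 34% and 26% of their within-group variance, and their correlation without it was not computed.

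The feeding groups of Period 2 were tested with limma on log2(CPM + 1) over all 13605 genes listed for that period. The choice of members did not use this difference itself, but it bounded the median of RES Period 2 against RES Period 1. It also took genes with a large SD within groups, which enters the test's standard error (median 0.42 for members, 0.18 for all genes). Few or no calls among members by limma are therefore favoured by the choice. With p-values adjusted by Benjamini-Hochberg and the cut-off of 0.001 that the study used, 0 of the 200 members and 0 of all genes (0%) were called between RES and ADLIB animals, and 0 members were called at 0.05. The study itself called GSTA1 in this comparison, higher in RES animals, with an edgeR likelihood ratio test. Identifiers could not be matched to symbols, so that gene was not looked up here. At an unadjusted p under 0.05, limma had 2 of the 200 members (1.00%) and 2.06% of all genes. Count models on the recovered reads also called 0 members, with 25 (edgeR quasi-likelihood), 33 (edgeR likelihood ratio) and 26 (DESeq2) members at an unadjusted p under 0.05, all of them higher in RES animals. These were 12.5%, 16.5% and 13.0% of the members, beside 3.67%, 4.32% and 4.38% of all genes in the same fits. The count models were not run without replicate 1 of RES Period 2, the library farthest from its group mean for 109 members. Their shares are therefore a description and support no difference. The median log2 difference, RES minus ADLIB, was -0.57 over block 1 (67 of 69 members lower), 0.04 over block 2 and 0.55 over block 3 (50 of 52 higher), beside -0.01 over all genes. The median standard error of a member was 0.47, 0.31 and 0.42 in the 3 blocks. Without replicate 1 of RES Period 2 the block medians were -0.20, 0.27 and 0.31. Members of a block were correlated over animals, so the number that share a direction is no independent support for it.

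ADLIB animals in Period 2 and Period 1, compared over 13509 genes in the same way, likewise gave 0 members and 0 genes (0%) at the threshold. Few calls among members are again favoured by their choice, with median standard errors of 0.37 for members and 0.16 for all genes. The study itself called ANPEP in this comparison, lower in Period 2, with an edgeR likelihood ratio test. At an unadjusted p under 0.05, limma had 2 of 200 members (1.00%) and 5.12% of all genes, and the count models had 16 (edgeR quasi-likelihood), 20 (edgeR likelihood ratio) and 18 (DESeq2) members, 15, 19 and 17 of them lower in Period 2. These were 8.00%, 10.0% and 9.00% of the members, beside 5.65%, 5.66% and 6.46% of all genes in the same fits. The median log2 difference, Period 2 minus Period 1, was 0.32 over block 1, 0.27 over block 2 and -0.52 over block 3, with median standard errors of 0.34, 0.36 and 0.40, beside 0.02 over all genes.

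Whether the spread differed between groups was tested over all 13509 genes with limma on absolute deviations from the group median. The members were chosen by the SD of the same values pooled over the groups, and a gene that spreads in 1 group alone can be chosen for it, so the members' counts in this fit are given as a description and support no difference. At a false discovery rate under 0.05, 0 members and 0 genes (0%) were called in each of 4 comparisons. At an unadjusted p under 0.05, RES against ADLIB in Period 1 had 4 of 200 members, beside 1.8% of all genes. RES against ADLIB in Period 2 had 6 members, beside 3.22%. Period 2 against Period 1 had 15 members in RES animals, beside 3.43%, and 3 members in ADLIB animals, beside 2.66%. Of the 15, 13 were in block 1. Without replicate 1 of RES Period 2 the 15 became 3, 1 higher and 2 lower, beside 4.44% of all genes, and the median difference over members went from 0.13 to -0.06 on the log2 scale. In that fit the 6 members of the Period 2 comparison became 2 (0.985% of all genes), the 4 of the Period 1 comparison became 9 (2.68%) and the 3 in ADLIB animals became 14 (4.97%). Without both libraries with many genes at 0, the 15 became 3, all higher, beside 2.11% of all genes. The median difference over members was then 0.07, so its sign depended on which libraries were left out. The 6, 4 and 3 of the other comparisons became 2 (1.08% of all genes), 16 (3.89%) and 27 (7.54%).

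By value, the median within-group SD of a member was 1.06 in ADLIB Period 1, 0.958 in RES Period 1, 0.653 in ADLIB Period 2 and 1.21 in RES Period 2. Over all 13509 genes the medians were 0.402, 0.419 and 0.307 in the first 3 of these groups, and that of RES Period 2 was above these with replicate 1 but 0.353 without it. Block 1 had its smallest median SD in RES Period 1 (0.547) and its largest in RES Period 2 (1.47), where it was 0.831 without replicate 1. Block 2 had its smallest in ADLIB Period 2 (0.414) and 1.15 in ADLIB Period 1. Without the 2 libraries with many genes at 0, RES Period 1 had a median member SD of 0.685 and RES Period 2 of 0.828.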

How the data were processed

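Jejunal epithelial RNA from 40 bulls was sequenced as 100 bp single-end reads, and the study's methods name Trim Galore for trimming, TopHat for alignment (genome build UMD3.1), HTSeq for counting reads of Ensembl genes that code for protein and edgeR for normalisation. The authors deposited 1 signal value per gene and library, CPM scaled by TMM factors set within the 20 libraries of each period. All values (100%) were whole multiples of what 1 read is worth in their library within 0.1 of a read, so the reads were recovered. With 4431390 to 8295900 reads per library, counting error was small for members, and intervals from reads cover counting error only.

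Spread and correlations were computed on log2(CPM + 1) with numpy and pandas. Tests were made with limma (3.58.1, R 4.3.3, with an intensity trend and Benjamini-Hochberg adjustment over all genes), at false discovery rates of 0.001 for expression and 0.05 for spread. Levels of Period 1 and Period 2 come from separate scalings, so the comparison of ADLIB animals between periods also rests on them. The spread fit used absolute deviations of log2(CPM + 1) from the group median, multiplied by the square root of n/(n - 1), with 4 group means. As alternatives, recovered reads were tested with edgeR (4.0.16) and with DESeq2 (1.42.0), and scripts were tested on simulated data. Differences are on the log2(CPM + 1) scale and understate the change of low genes. No 2 libraries held identical values.

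The members, lists and tests were chosen with earlier results of these data known. The rule for genes given by name covered the 12 largest SDs, 3 leading members per block, members with low and high states (under 1 CPM in 5 or more libraries and above 10 CPM in 5 or more) and the smallest p-values of each test. As identifiers could not be matched to symbols (0 of the members matched the reference table used here), identifiers are printed for 4 members, and ranks for 11 others, some chosen after their values were seen (ranks 49, 134 and 156 as partners in pairs). Marker and pathway lists could not be applied for the same reason, and no sequence is shown. Replicate numbers did not pair the animals, which differed between groups.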

Additional observations from a re-analysis of the deposited data

Results flagged for a closer look

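The level of each block, its leading member and the 7 members with low and high states (under 1 CPM in 5 or more libraries and above 10 CPM in 5 or more) were searched for a single animal far from its group of 10, by the gap to its nearest neighbour as a share of the group's range (above Dixon's 95% critical value for 10 samples). Of 52 groups of values, 10 were past it. Chance passes about 1 in 20 groups, but members were chosen for their spread and a block's level and its leading member hold the same pattern, so these 10 are not independent of the choice or of each other.

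Replicate 1 of RES Period 2 was the lowest animal of its group for the level of block 1 (share of range 0.480) and of block 2 (0.477), for the leading member of block 1, ENSBTAG00000008612 (0.509), and for that of block 2, ENSBTAG00000018729 (0.495). This is the library with 585 listed genes at 0 reads. Replicate 10 of ADLIB Period 2 was the lowest of its group for block 1 (0.616), at a level of 4.12 against 5.35 for the next animal, and for ENSBTAG00000008612 (0.532), at 98.2 against 228 CPM.

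The other 4 were single members. The member ranked 8 was highest in ADLIB Period 1 replicate 6 (share of range 0.666) and in ADLIB Period 2 replicate 9 (0.501), at 14.4 against 3.58 CPM for the next animal in the second case. The member ranked 10 was lowest in ADLIB Period 2 replicate 8 (0.624), the only animal of that group at 0 reads. The member ranked 26, in block 1, was lowest in RES Period 1 replicate 2 (0.620), at 5.31 CPM against 11.7 CPM for the next animal.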

How the results depend on the processing

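The list of members changed more with the measure and with single libraries than with TMM scaling over all 40 libraries. No other kind of scaling was tried. Of the 200 members, 101 were chosen again when the median absolute deviation replaced the SD, 126 without RES Period 2 replicate 1 and 111 without both libraries with many genes at 0 (this last, like the spread tests without both or with the replicate number, was chosen after seeing the data). The other 4 settings kept 135 to 184. With the median absolute deviation, 15 of the 56 members of block 2 and 24 of the 69 of block 1 were kept, but 44 of the 52 of block 3. Without RES Period 2 replicate 1, 16 members of block 2 and 9 of block 3 no longer met the limits on the medians. The blocks numbered 3 or 4 in 9 settings and 5 from Period 1 libraries alone, and held 172 to 184 members throughout. With Spearman correlations the mean within block 2 was 0.78, and from Period 2 libraries 0.79, against 0.88. In each test of expression or spread, 0 members were called under every setting run. For RES against ADLIB in Period 2, 1 to 33 members had an unadjusted p under 0.05, beside 1.48% to 4.38% of all genes. For ADLIB animals over time there were 2 to 20 such members, beside 4.18% to 6.56% of all genes. The number reached 48 (24% of members) in a spread test with deviations from the group mean, for RES animals over time. In that fit it was 9.92% of all genes. The median log2 difference over members was -0.0035 by limma and 0.15 to 0.17 by the count models in the first comparison, and 0.19 and -0.06 to -0.04 in the second, so its sign depended on the model. The causes of these changes were not tested. The median standard error of a member was 0.42 on the log2 scale in the first comparison and 0.37 in the second. Differences well above 1 standard error could also go uncalled. In the first comparison the member ranked 34 differed by 0.92 with a standard error of 0.52 (unadjusted limma p of 0.091).

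The replicate numbers of the labels did not pair the animals. Deviations of same-numbered libraries had a mean correlation of -0.087 between RES and ADLIB in Period 2, with 3 of 10 pairs above 0.1, and of -0.016 between the ADLIB groups, with 5 of 10. With the replicate number as a block, 0 members were called in either comparison or in a spread test. In the comparisons of expression, 3 and 9 members had an unadjusted p under 0.05, beside 1.80% and 4.18% of all genes.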
